A study of Mus musculus with 28 samples.

Results

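The retroperitoneal fat pad of control mice on day 17 of feeding was compared with the same pad taken on days 3, 4, 7 and 10. The comparison used 10 of the series' 28 arrays, chosen by diet and day in their titles: 2 arrays of control day 17 and 8 of the earlier control days, 2 per day. The series follows white fat over 7 time points in 9-week-old mice, whose strain the labels write as C57BK/6J, on a control diet or a diet that contained 0.5% conjugated linoleic acid (CLA) in its trans-10 cis-12 form. All arrays of the comparison come from animals on the control diet, without CLA. A sample was a pool of both pads from 10 animals, and 15 µg of its Trizol-purified total RNA went into biotinylated cRNA for a high density oligonucleotide array.

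The labels do not say whether the 2 arrays of a day hold separate pools. The series record speaks of replicated pools and gives 140 mice, which comes to 10 per diet and day over 14 such groups. The spread between arrays of a day may therefore be technical only, and so may p-values that use it alone. In the comparison with all earlier days, the spread between those days also counted as error. Day 17 is a single day, possibly a single pool. Its 2 arrays were counted almost as independent samples (fitted correlation between arrays of a day 0.0104). A value is the log2 of a probe set's normalised signal, so a difference of 1 is a doubling. A gene was called higher or lower when its adjusted p was under 0.05 in a model fitted with limma across 18193 genes (Benjamini-Hochberg adjustment, two-sided, the day as a random block). "Replicate 1" and "replicate 2" are the arrays of a day as the labels number them.

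Between any 2 of the 10 arrays, values correlated at 0.986 to 0.996 across genes. Replicate 1 of day 7 stood furthest apart, with 144 genes (0.792%) more than 2-fold from the median of the 10 arrays, against 1 to 119 genes in the others. Leaving it out gave 55 genes higher and 1 lower, against 55 and 2 with all arrays.

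The retroperitoneal pad is a white fat depot behind the abdominal cavity, next to the kidney and adrenal gland and in reach of the body wall muscle. Its adipocytes store triglyceride and release fatty acids, leptin and adiponectin. Hepatocytes, by contrast, make most plasma proteins: albumin, the apolipoproteins, the clotting factors and the protease inhibitors of blood. Their genes are switched on together by liver-enriched transcription factors such as HNF4A and the C/EBP family, and a fat cell makes little of most of them. Genes of neighbouring organs in a pad's RNA are therefore reported apart from genes of the fat itself, by 38 lists of known genes: 11 of other organs, 10 of cell types within fat, 11 of fat functions and 6 of general programmes.

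The day 17 pads differed from the earlier pads mainly by liver transcripts. Of 18193 genes tested, 57 were called (0.313%), 55 of them higher on day 17 (0.302%) and 2 lower (0.011%). Of the 45 genes measured on the liver list, 28 rose, by 0.61 to 4.45 on the log2 scale, and none fell. No gene of the other organ lists or of the 11 fat lists was called in either direction. The other 27 genes that rose were on no list, and all but 1 of them are grouped with the listed genes by role below.

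For all 55 genes that rose, both day 17 arrays lay above all 8 earlier arrays. The same was true of 451 of all genes tested (2.48%). The rises ran from 1.53-fold for F9 to 21.8-fold for Fabp1. In 49 genes the rise was 2-fold or more and in 7 it was 8-fold or more. On the earlier days these transcripts were dim: 49 of the 55 had a mean log2 value under 5. In pooled tissue a change in the number of cells of a type and a change in RNA per cell cannot be told apart.

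**Figure D1:**
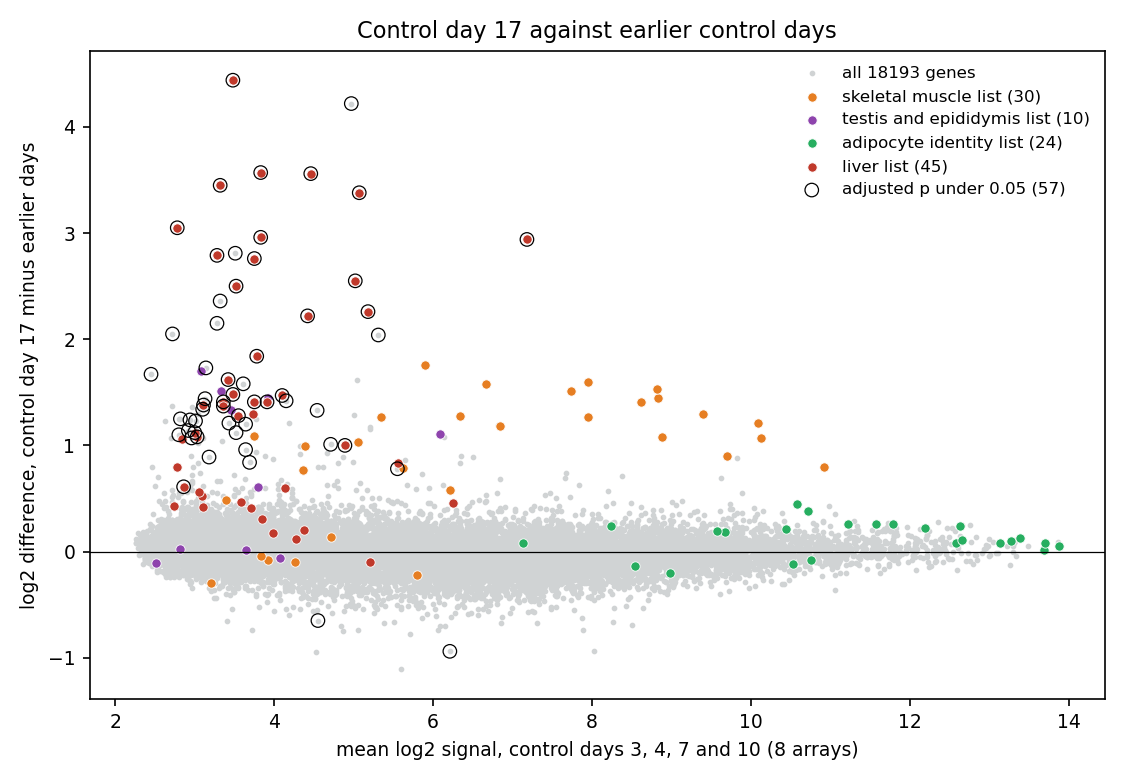
Log2 difference of control day 17 minus the earlier control days (y axis) against the mean log2 signal of the 8 earlier arrays (x axis), 1 point per gene, with the liver, skeletal muscle, testis and adipocyte lists coloured and the 57 called genes ringed. The liver genes reach 4.45 above 0, while the 24 adipocyte identity genes lie between -0.20 and 0.45.

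Promoters of the genes that rose were searched because these genes moved together and 28 of the 55 were on the liver list. The window from 250 bases before to 50 bases after each gene's start was taken from RefSeq on build GRCm38.p6, and 48 of the 55 genes had 53 such windows. The HNF4A-type word CAAAGTCCA, searched on both strands, occurred in 1 of the 53 windows (1.89%), that of Cyp3a11, and in 156 of 32851 windows of all genes (0.475%). The C/EBP palindrome TTGCGCAA occurred in 0 of 53, and in 0.183% of all. These words were chosen after the list of genes was known, and a match is a description of the letters, not of a bound site. The 120 bases upstream of the Cyp3a11 start are given 5′ to 3′ on the gene's strand, as the only window with a match, with the word in capitals.
Cyp3a11, chr5:145879855-145879974, minus strand, word beginning 109 bases before the start: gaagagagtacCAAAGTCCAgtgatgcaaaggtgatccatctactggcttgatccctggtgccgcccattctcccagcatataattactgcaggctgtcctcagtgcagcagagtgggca

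The lipid carriers include the gene with the largest rise. Fabp1, the fatty acid binding protein of liver, read 8.43 and 7.43 in replicates 1 and 2 of day 17, and 3.04 at the lowest, 3.17 in the median and 4.84 at the highest of the 8 earlier arrays. The difference was 4.45 ± 0.37 on the log2 scale (SE; 2 against 8 arrays; limma adjusted p = 4.59e-05), and the highest earlier array was replicate 2 of day 3. Apoa2, a structural protein of high density lipoprotein, read 8.69 and 8.22 on day 17 against 4.59, 4.83 and 6.13 earlier (lowest, median and highest), a difference of 3.38 ± 0.33 (limma adjusted p = 7.86e-05). Both groups of arrays were again far apart, and replicate 2 of day 3 was again the highest of the earlier ones. Apoa1, the main protein of the same particle, rose by 2.55 ± 0.34, from an earlier median of 4.94 to 7.88 and 7.26. Over the 7 genes of this role the median rise was 2.22. Stard10, a lipid transfer protein, had the smallest, 0.78 ± 0.15.

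Protease inhibitors of plasma had the highest median rise of the roles. Serpina1b, an alpha-1 antitrypsin, read 8.79 and 7.25 on day 17 and between 3.90 and 5.89 earlier, with a median of 4.31. The difference was 3.56 ± 0.41 (limma adjusted p = 0.000344). Serpina1c, a near-identical copy whose probe set may share signal with Serpina1b, read 9.97 and 8.41 against 3.95 to 6.93, a difference of 4.22 ± 0.59. Whether the probe sets tell the copies apart was not tested. Pzp, an alpha-2-macroglobulin relative that traps proteases, rose by 2.36 ± 0.30, and Ambp, the precursor of alpha-1-microglobulin and bikunin, by 2.79 ± 0.30. Over all 6 inhibitors that rose the median was 2.57, against 1.20 to 2.22 in the other 6 roles.

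All 3 fibrinogen chains rose. Fga read 7.76 and 5.77 on day 17 against 2.74 to 4.30 earlier (median 3.15), a difference of 3.45 ± 0.41 (limma adjusted p = 0.000359). Fgg rose by 2.76 ± 0.42 and Fgb by 2.50 ± 0.30. Fgg in replicate 2 of day 3, at 5.01, came close to the lower day 17 array, which read 5.59. Serpinc1 (antithrombin) rose by 1.84 ± 0.27, and F2 (prothrombin) and Plg (plasminogen) by 1.41 each. F9, clotting factor IX, moved from an earlier median of 2.84 to 3.50 and 3.44, the smallest rise of any called gene. The 8 genes of clotting and its control had a median rise of 1.73, and in all 8 replicate 1 of day 17 read above replicate 2.

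Alb encodes serum albumin. Its values were 7.40 and 8.37 on day 3, 6.62 and 6.30 on day 4, 7.02 and 7.46 on day 7, 7.40 and 6.90 on day 10, and 10.93 and 9.31 on day 17, replicate 1 first. The day 17 arrays were the top 2 of the 10, and day 3 replicate 2 came next. The difference was 2.94 ± 0.43 (limma adjusted p = 0.00298). Hpx (hemopexin, which binds free heme) read 9.03 and 5.77 on day 17 against 3.42 to 4.94 earlier (median 3.71), a difference of 3.57 ± 0.55. Its day 17 replicates were 3.26 apart, the widest gap of any gene that rose. Ttr (transthyretin, a carrier of thyroid hormone and retinol) rose by 2.26 ± 0.31 on the probe set used. Its 3 other probe sets gave 4.54, 5.05 and 5.10, so its size depends on the probe set.

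**Figure D2:**
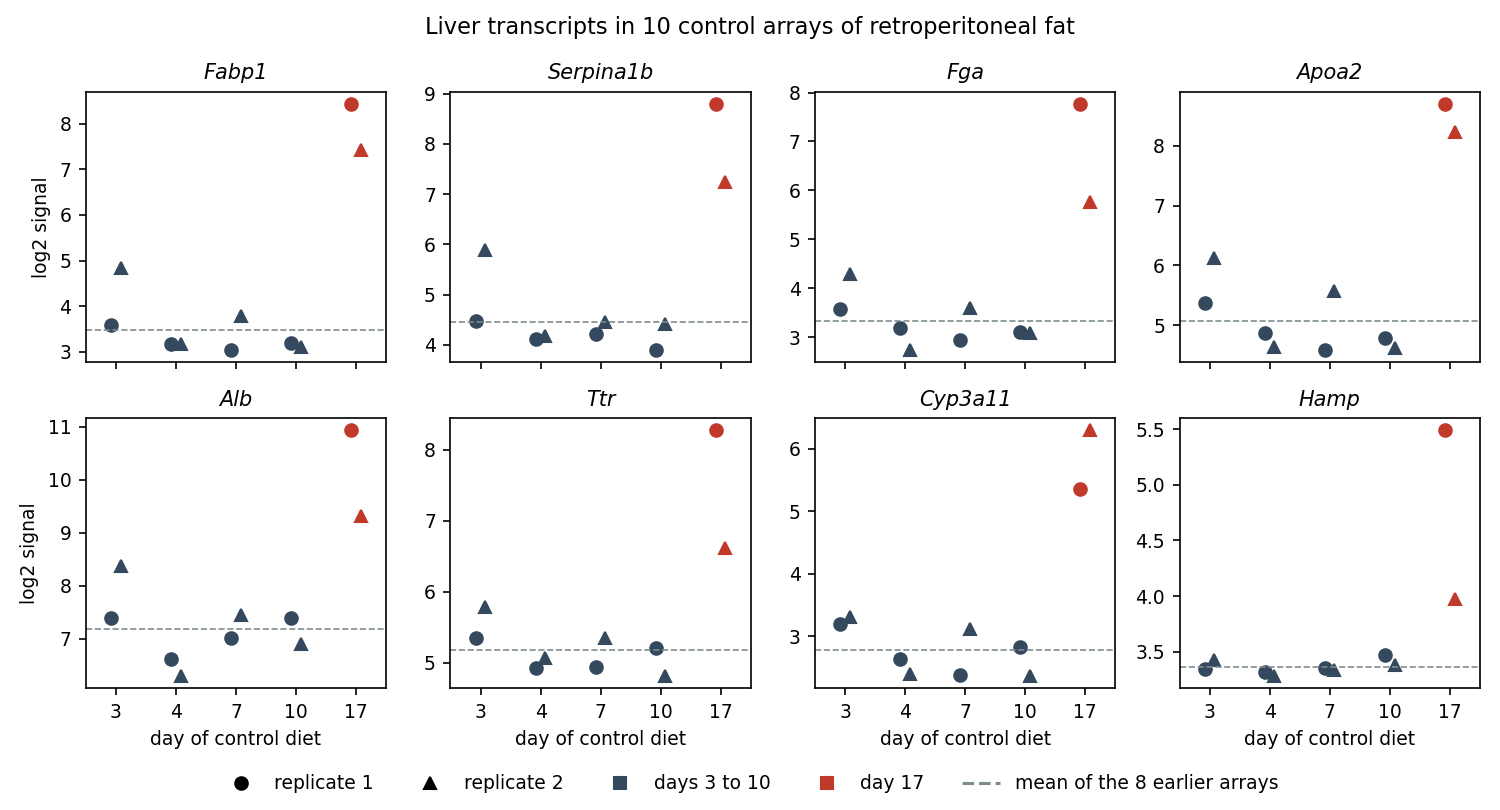
Log2 signal (y axis) of 8 liver transcripts in the 10 control arrays by day of feeding (x axis), with circles for replicate 1, triangles for replicate 2 and a dashed line at the mean of the 8 earlier arrays. In all 8 genes the red day 17 points lie above every earlier point, replicate 1 is the higher one in all but Cyp3a11, and replicate 2 of day 3 is the highest earlier point for 7 of the 8.

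Enzymes of hepatocyte metabolism rose as well. Bhmt, which remethylates homocysteine with betaine, read 7.27 and 6.30 on day 17 against 3.29 to 4.53 earlier (median 3.82), a difference of 2.96 ± 0.27 (limma adjusted p = 6.07e-05). Fbp1, the gluconeogenic fructose bisphosphatase, rose by 2.81 ± 0.27. Cps1, the entry enzyme of the urea cycle, rose by 1.28 ± 0.18, Hpd of tyrosine breakdown by 1.47 ± 0.15, Gnmt, a methyltransferase that uses S-adenosylmethionine, by 1.42 ± 0.15 and Uox (urate oxidase) by 1.48 ± 0.27. The 7 genes of this group had a median rise of 1.47.

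The largest group, 15 genes, handles drugs, steroids and bile acids. Cyp3a11, the main drug-oxidising P450 of mouse liver, read 5.36 and 6.29 on day 17 against 2.36 to 3.31 earlier (median 2.73), a difference of 3.05 ± 0.27 (limma adjusted p = 5.26e-05). It was 1 of 4 genes in which replicate 2 of day 17 read above replicate 1. Cyp3a25 rose by 2.05 ± 0.23, Rdh7, a retinol dehydrogenase, by 1.73 ± 0.21, and Slc10a1, the sodium-dependent bile acid importer of hepatocytes, by 1.23 ± 0.18. The other probe set of Slc10a1 gave 0.65, which was not called. The median of the group was 1.33. Its Cyp2d and Ugt2b members, and Mup3 among the plasma proteins, belong to families of near-identical copies and are uncertain as single genes. The other probe set of Mup3 gave a difference of 0.08 against 2.04 on the one used.

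Acute phase, complement and iron genes were 5 of the 55. Saa1, an acute phase apolipoprotein, rose by 2.15 ± 0.20, from an earlier median of 3.33 to 5.67 and 5.19. Its other probe set gave 0.92, which was not called, and Saa2 is a close copy. Hamp, the liver hormone hepcidin that limits iron export, read 5.49 and 3.97 on day 17 and 3.28 to 3.47 earlier, a difference of 1.37 ± 0.24 (limma adjusted p = 0.0187). Most of that rise came from replicate 1. Hc (complement C5) rose by 1.20 ± 0.12 and Cfi (complement factor I) by 0.96 ± 0.19.

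Of the 17 liver list genes that were not called, all but Hnf4a had differences above 0, up to 1.30. The next counts and the median cover the whole list, including the 28 genes already called higher. There 44 of 45 differences were above 0, against 51.0% of all genes. In 40 the unadjusted p was under 0.05, against 3.04% of all genes. In 37 of the 45 both day 17 arrays lay above all earlier ones. The list's median difference was 1.37, and that over all genes was 0.0037. C9, of the complement attack complex, differed by 1.30 ± 0.32 (limma adjusted p = 0.214) and C8a by 1.06 ± 0.23 (0.089). The exception was Hnf4a, a liver transcription factor also made in kidney and gut, at -0.10 ± 0.15, with a mean of 5.11 on day 17 and 5.21 earlier.

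The 2 day 17 arrays did not carry the liver transcripts to the same height. Replicate 1 read above replicate 2 in 51 of the 55 genes, with a median gap of 0.94 and a range from -0.93 to 3.26. Taken as linear signal above the earlier mean, replicate 1 held 2.96 times the excess of replicate 2 in the median gene, with quartiles of 1.59 and 3.72. Summed over the liver list, linear signal was 6399 in replicate 1 and 2671 in replicate 2 of day 17, 759 to 1336 in the earlier control arrays (median 876), and 719 to 820 in the 4 control arrays of days 1 and 2. The sum was thus 7.30 and 3.05 times the earlier median.

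A liver rise was called with either day 17 array alone, when the lone array was assumed to vary like the other arrays. Without replicate 1 of day 17 the model called 76 genes higher, 31 of them among the 55, and 15 liver list genes. Without replicate 2 it called 69 higher, 51 of them among the 55, and 30 liver list genes. Against each earlier day alone, with the spread between arrays of a day as error, 20 genes were higher than on day 3 (0.11%), 39 than on day 4 (0.214%), 31 than on day 7 (0.17%) and 31 than on day 10 (0.17%). These 4 contrasts share the day 17 arrays. A single gene was lower against day 3 and 1 against day 4 (0.0055% each), and 0 against days 7 and 10. Among the 4 earlier days the F test of limma called 0 genes, with 1091 (6.0%) at an unadjusted p under 0.05. With 2 arrays per day these counts hang on single arrays. Without replicate 1 of day 3 only 1 gene was higher than on day 3, and without replicate 2 of day 17 there were 61. Without replicate 2 of day 7, which leaves the array that stood apart as the only one of its day, 98 genes were higher than on day 7 and the F test called 65.

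Liver signal also varied among the earlier arrays. In 26 of the 55 genes replicate 2 of day 3 was the highest of the 8 earlier arrays. The array was set apart from the other 7 in its liver sum, 1336 against 985 for the next. Without it 57 genes were called higher, 54 of them among the 55.

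Skeletal muscle transcripts were also high in the day 17 arrays, but overlapped the earlier ones. Ckm, the creatine kinase of muscle, read 10.79 and 9.78 on day 17 and 7.58 to 10.97 earlier (median 9.00), a difference of 1.45 ± 0.60 (limma adjusted p = 0.843). Myh4, the myosin of fast fibres, read 11.00 and 9.70 against 7.43 to 10.86 (median 8.84). Acta1, skeletal alpha-actin, read 11.60 and 10.79 against 9.09 to 11.54 (median 10.14). For Ckm the day 17 values fell inside the earlier range, and for Myh4 and Acta1 only replicate 1 exceeded it. The array that closed the gap was replicate 1 of day 3, the highest of the earlier arrays in all 3 genes.

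Of the 30 muscle genes measured, limma called 0, while 16 had an unadjusted p under 0.05 upward (3.04% of all genes), and the median difference was 1.08. The muscle sum was 26852 and 14398 on day 17 and ran from 4044 to 28790 earlier, a 7.12-fold range among arrays of untreated pads. Without replicate 1 of day 3 the model called 9 muscle genes higher and 85 genes in all, and without both arrays of day 3 it called 12 and 86. For these genes the absence of a call depended on replicate 1 of day 3, while most of the 30 were still not called. That array had the highest earlier muscle sum, so leaving it out favoured a rise.

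Testis transcripts appeared in 1 day 17 array. Tnp2, a transition protein of spermatid chromatin, read 6.64 in replicate 2 of day 17 and 2.91 in replicate 1. In the earlier arrays it read 4.42 in replicate 2 of day 10 and 2.72 to 3.06 in the others. Prm2 and Prm1, the protamines that pack sperm DNA, read 7.18 and 8.58 in replicate 2 of day 17 but 3.57 and 5.80 in replicate 1. The earlier arrays held Prm2 at 3.44 to 4.94 and Prm1 at 5.61 to 7.08, with replicate 2 of day 10 highest for both.

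In all 3 sperm genes replicate 2 of day 17 lay above the earlier range and replicate 1 within it. The testis and epididymis sum was 880 in replicate 2 of day 17, 145 in replicate 1 and 134 to 300 earlier. Limma called 0 of the 10 genes measured, with 5 at an unadjusted p under 0.05 upward. With replicate 1 of day 17 left out, only the array where these genes are high remained, and the difference was 3.56 for Tnp2 and 3.25 for Prm2. The epididymal lipocalin Lcn5 stayed at 3.64 to 3.68 on day 17 and 3.41 to 3.80 earlier.

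**Figure D3:**
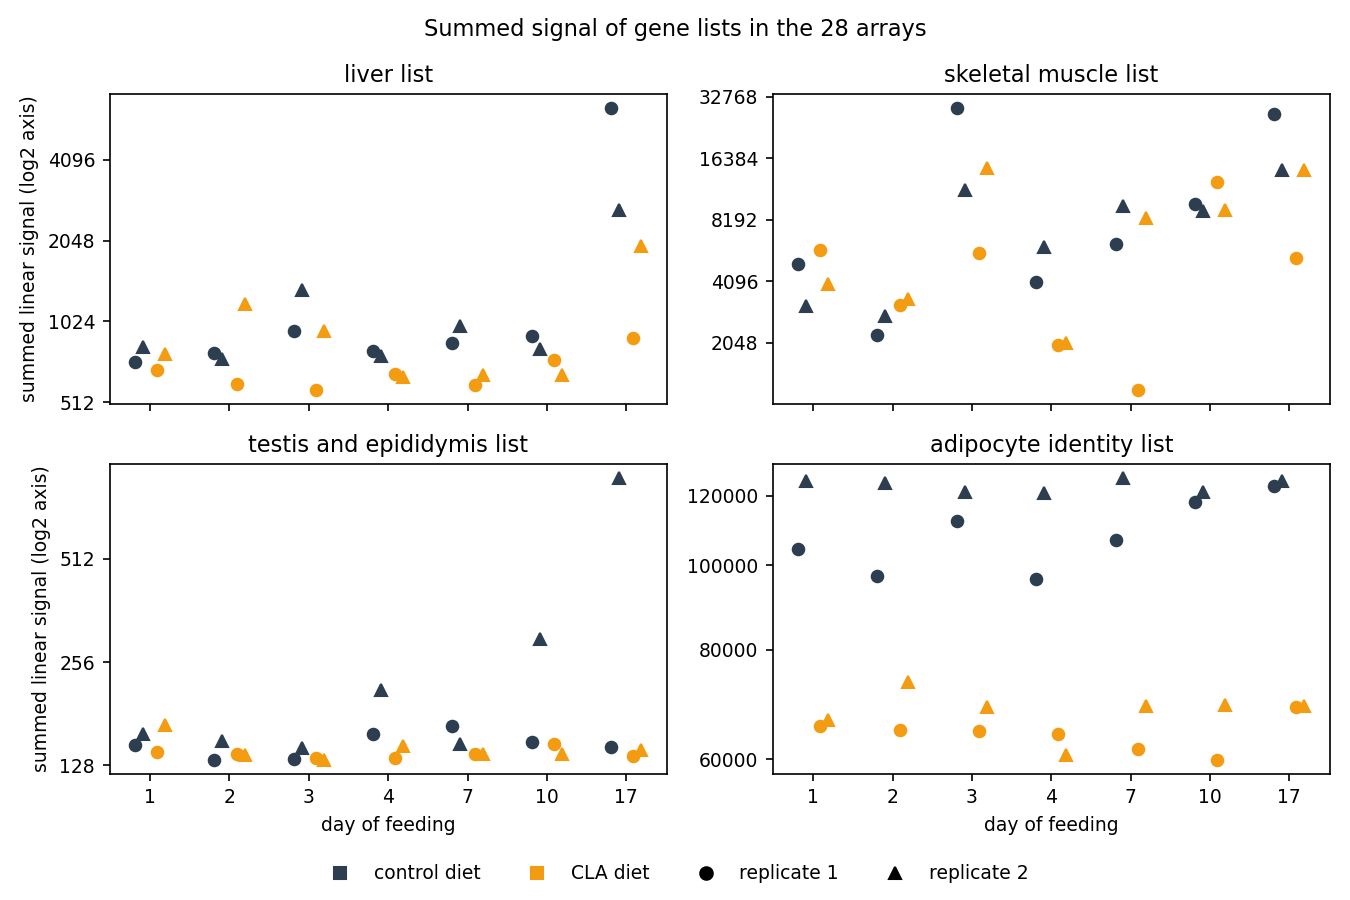
Summed linear signal of the members of 4 gene lists (y axis, log2-spaced) by day of feeding (x axis) in all 28 arrays, dark for the control diet and orange for the CLA diet, circles for replicate 1 and triangles for replicate 2. The liver sum is highest in the 2 control day 17 arrays (6399 and 2671), the testis sum in 1 of them (880), the muscle sum in a day 3 array (28790), and the adipocyte sums of control day 17 (123250 and 124802) lie within the earlier control range.

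No gene of the other organs near the pad was called. On the kidney list limma called 0 of 18 genes (1 at an unadjusted p under 0.05), and the sum was 388 and 427 on day 17 against 329 to 426 earlier. Umod and Slc34a1, defining genes of the kidney tubule, read 2.28 to 2.89 and 3.34 to 3.70 over the 10 arrays. Of 13 adrenal genes 0 were called (1 at an unadjusted p under 0.05), and Cyp11b1, the last enzyme of corticosterone synthesis, read 2.96 to 3.45. Limma likewise called 0 of 14 exocrine pancreas genes, 8 islet genes, 17 intestine genes, 6 of lymph node stroma and 8 of peripheral nerve, with medians from 0.0075 to 0.089. At unadjusted p under 0.05 there were 1, 0, 2, 0 and 0 upward in these lists, and 1 downward, Cxcl13 of lymph node stroma.

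Mesothelium, the cell sheet that covers abdominal organs and fat, lay the other way. All 15 of its genes had differences below 0, with a median of -0.27, and limma called 0 of them. At an unadjusted p under 0.05, 4 were lower, against 2.28% of all genes. Upk1b, a membrane protein of mesothelium and bladder lining, read 6.26 and 6.23 on day 17 against 6.57 to 7.04 earlier, a difference of -0.62 ± 0.14 (limma adjusted p = 0.15). Msln (mesothelin), named after the tissue, overlapped, at 6.22 and 5.97 against 6.04 to 6.71.

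**Figure D4:**
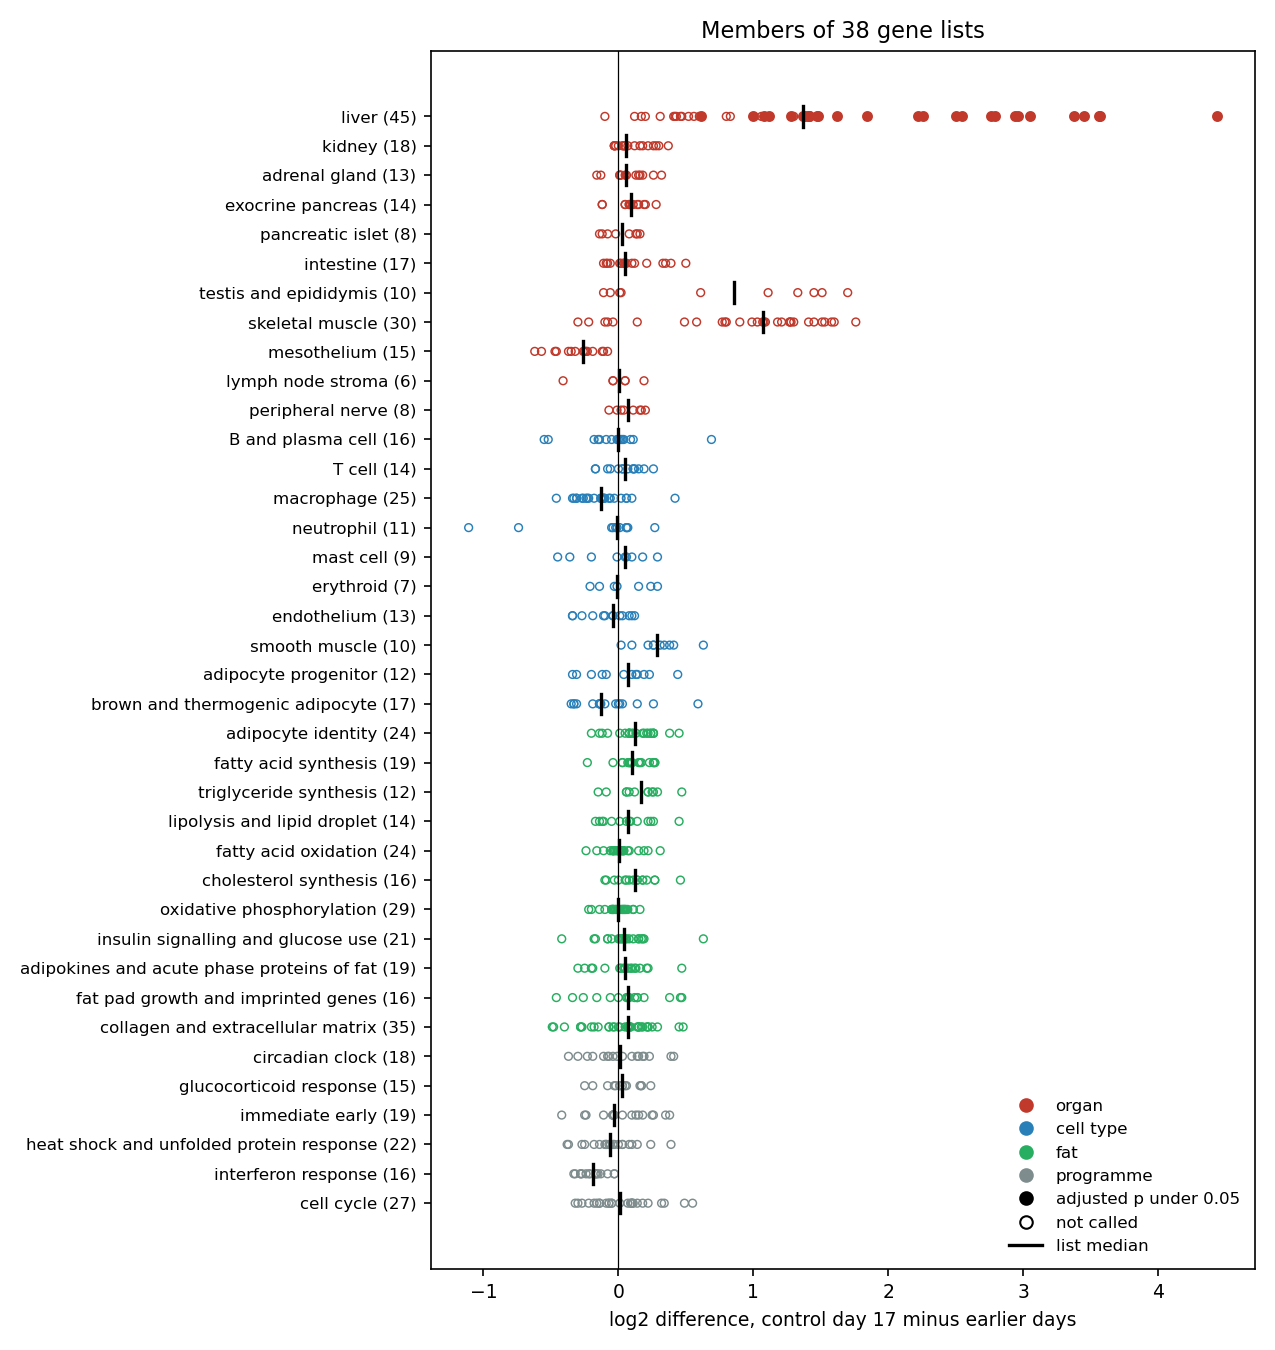
Log2 difference of control day 17 minus the earlier control days (x axis) for each measured member of the 38 gene lists (y axis, number measured in brackets), with filled points for called genes, open points for the rest and a black bar at each list's median. Filled points occur in the liver list alone, the skeletal muscle and testis lists are shifted with medians of 1.08 and 0.86 but hold open points only, and the fat lists lie close to 0.

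The genes of the fat lists showed no called change between day 17 and the earlier days. This does not cover the 27 rises and 2 falls on no list. Azgp1, a secreted protein among those 27, rose by 1.33 ± 0.15. The tissue its transcripts came from was not tested. Across the 11 fat lists 215 genes were measured, and limma called 0. At an unadjusted p under 0.05, 4 were higher and 3 lower, against 3.04% and 2.28% of all genes. Their median difference was 0.055. The precision was moderate: the median 95% confidence interval reached 0.33 to either side on the log2 scale, and in 209 of the 215 genes the interval lay within a 2-fold change either way. Changes within these intervals cannot be told from none in these genes with 2 day 17 arrays.

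The defining genes of adipocytes overlapped between day 17 and the earlier days. Adipoq (adiponectin) read 13.66 and 13.75 on day 17, and 13.34 at the lowest, 13.75 in the median and 13.82 at the highest of the earlier arrays. The difference was 0.01 with a 95% interval from -0.26 to 0.29. Fabp4, the fatty acid binding protein of adipocytes, read 13.96 and 13.88 against 13.46, 13.93 and 14.01. In both genes the day 17 arrays lay inside the earlier range, and replicate 1 of day 4 was the lowest array.

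Hormones of the pad were not called. Lep (leptin), whose output follows fat mass, read 10.66 and 10.64 on day 17 against 10.00 to 10.84 earlier (median 10.54), a difference of 0.21 ± 0.21. Retn (resistin) read 13.31 and 13.42 against 12.93 to 13.40. Both leptin values were inside the earlier range. Over the 19 adipokine and acute phase genes of fat the median difference was 0.048 and limma called 0, with 0 at an unadjusted p under 0.05.

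Of the 24 adipocyte identity genes measured, 20 had differences above 0, against 51.0% of all genes, with a median of 0.12. Npr3, the clearance receptor for natriuretic peptides, was the only one with an unadjusted p under 0.05 (0.0458, limma). It read 11.10 and 11.11 on day 17 against 10.31 to 11.11 earlier, a difference of 0.38 ± 0.17 (adjusted p = 0.925). Lipe (hormone-sensitive lipase) had the largest difference, 0.45 ± 0.29, with values of 10.81 and 11.25 against 9.58 to 11.04. The identity sum was 123250 and 124802 on day 17 and 96349 to 125686 earlier.

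Genes of fat storage were not called either. Fasn, the fatty acid synthase, read 13.58 and 13.27 on day 17 against 13.10 to 13.62 earlier (median 13.32). Scd1, the delta-9 desaturase, read 13.95 and 13.94 against 13.44 to 13.95. Dgat2, which adds the last acyl chain of triglyceride, read 13.04 and 12.78 against 12.48 to 12.98, a difference of 0.25 ± 0.13 (limma adjusted p = 0.958). Only its replicate 1 exceeded the earlier range. These values lie near the top of the table's scale, and whether differences are compressed there was not tested.

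Among 12 triglyceride synthesis genes the median difference was 0.17, among 19 fatty acid synthesis genes 0.10 and among 14 genes of lipolysis and the lipid droplet 0.071. Plin4, a droplet coat protein, read 12.88 and 12.86 against 12.17 to 12.90. Limma called 0 in each of these lists, and 0 had an unadjusted p under 0.05 in any of them.

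Of the fat lists, respiration and fatty acid oxidation varied least between arrays. The 29 respiratory chain genes had differences from -0.22 to 0.15, with a median of 0.0037 and a median SD over the 10 arrays of 0.14, against 0.15 for fatty acid oxidation and 0.21 to 0.29 for the other 9 fat lists. Ndufb5, a subunit of complex I, read 10.84 in both day 17 arrays, just under the earlier range of 10.88 to 11.29. The 24 fatty acid oxidation genes had a median difference of 0.0062. Hadh, a dehydrogenase of beta-oxidation, read 13.09 and 13.12 against 12.91 to 13.27. Limma called 0 in both lists, with 0 at an unadjusted p under 0.05.

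Cholesterol synthesis genes were more variable, with a median SD of 0.29 over the 10 arrays. Dhcr7, the last reductase of the pathway, read 8.91 and 8.54 against 7.85 to 8.97, a difference of 0.46 ± 0.21 (limma adjusted p = 0.929). Insig1, a sterol sensor that holds back SREBP, is counted on the fatty acid synthesis list instead. It read 8.19 and 10.58 on day 17, with the earlier arrays between 7.82 and 10.15. Its day 17 replicates were thus about as far apart as the extremes of the earlier arrays.

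Of 21 genes of insulin signalling and glucose use, Pik3r1, the regulatory subunit of PI3 kinase, had the highest difference (0.63 ± 0.36) and Irs2, an insulin receptor substrate, the lowest (-0.42). Among 16 growth and imprinted genes the differences ran from -0.46 (Peg3) to 0.47 (Sfrp5). None of these were called by limma, and 1 gene, Npr3, had an unadjusted p under 0.05.

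The matrix list of 35 genes held 5 of the 7 fat list genes with an unadjusted p under 0.05. Thbs2, a thrombospondin of the pericellular matrix, read 6.27 and 6.36 on day 17 against 6.61 to 7.26 earlier, a difference of -0.49 ± 0.15 (limma adjusted p = 0.571). Tnc (tenascin C) read 4.71 and 4.86 against 4.95 to 5.60, and Postn (periostin) 9.96 and 9.98 against 10.08 to 10.48. In these 3 genes both day 17 arrays lay under all the earlier ones, a pattern found in 1.96% of all genes.

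Other matrix genes went the other way or not at all. Col15a1 and Col5a3, minor collagens, had differences of 0.48 ± 0.19 and 0.45 ± 0.18, and both overlapped the earlier arrays. Col3a1, a main fibrillar collagen, read 13.36 and 13.24 against 13.13 to 13.41. The median of the list was 0.07 and limma called 0.

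**Figure D5:**
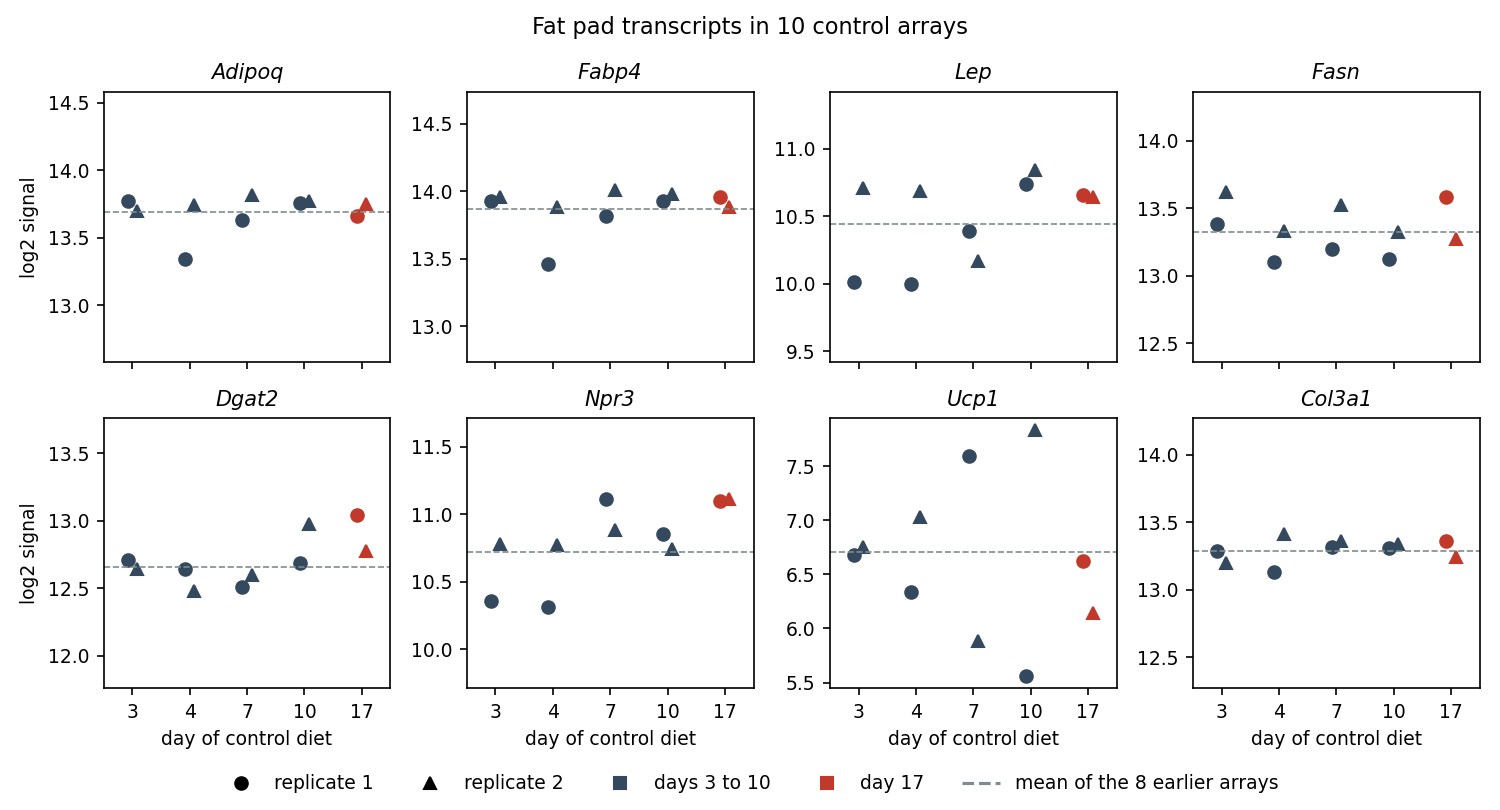
Log2 signal (y axis) of 8 transcripts of the fat pad in the 10 control arrays by day of feeding (x axis), drawn as for the liver transcripts. The day 17 points of Adipoq, Fabp4, Lep, Fasn and Col3a1 lie within the earlier range, Dgat2 has 1 point above it, Npr3 sits at its upper edge, and Ucp1 spreads from 5.56 to 7.83 without order by day.

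Brown fat genes in this white depot varied between arrays, and none was called on day 17. Ucp1, the uncoupling protein of thermogenic adipocytes, read 6.62 and 6.14 on day 17, and 5.56 to 7.83 earlier (median 6.71). Both extremes came from day 10, where replicate 1 read 5.56 and replicate 2 read 7.83. Cidea, a droplet fusion protein of brown fat, read 9.91 and 9.77 against 9.14 to 10.50. Cox8b, another gene of this list, read 9.91 and 10.25 against 10.07 to 10.60. Of 17 such genes limma called 0, with 0 at an unadjusted p under 0.05 and a median difference of -0.13. Differences were above 0 in 6 of the 17, against 51.0% of all genes. The list sum was 4207 and 4104 on day 17 and 4115 to 5383 earlier.

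Only 2 genes fell on day 17, and both encode receptors found on immune cells. Clec4b1, a C-type lectin receptor of myeloid cells, read 5.33 and 5.21 on day 17 against 5.93 at the lowest, 6.19 in the median and 6.52 at the highest of the earlier arrays. The difference was -0.94 ± 0.16 (limma adjusted p = 0.00954), and it was called in 23 of 26 alternative analyses. Ptger2, a prostaglandin E2 receptor, read 3.85 and 3.95 against 4.24 to 4.77 (median 4.54), a difference of -0.65 ± 0.13 (limma adjusted p = 0.0471). That call was fragile: it was made in 5 of 25 alternatives, with adjusted p from 0.0118 to 0.999.

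No gene of the macrophage list was called with them, though most leaned downward. Of 25 measured, limma called 0, with 2 lower and 1 higher at an unadjusted p under 0.05. Differences were above 0 in 5 of the 25, against 51.0% of all genes. They ran from -0.46 (Itgam) to 0.42 (Itgax), with a median of -0.13. Csf1r, the growth factor receptor of macrophages, read 10.83 and 11.26 on day 17 against 10.72 to 11.29, and Adgre1, a surface receptor of macrophages, 8.11 and 8.08 against 7.90 to 8.24. Both genes overlapped the earlier range. The macrophage sum was 10938 and 12890 on day 17 and 11425 to 14249 earlier.

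The next largest differences downward among genes whose arrays did not overlap were not called. They ran from -0.70 for Zfp521, a regulator of adipocyte commitment, to -0.62 for Upk1b. Abcb1b, a drug efflux pump, read 5.35 and 5.56 against 5.85 to 6.50, a difference of -0.69 ± 0.15 (limma adjusted p = 0.0923). Gzma (granzyme A of cytotoxic lymphocytes) read 5.22 and 5.24 against 5.55 to 6.17 (adjusted p = 0.173). Cdh11 and Tbx18, of stromal cells, had differences of -0.67 and -0.66.

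Across the 10 cell type lists and the 6 programme lists, 249 genes were measured and limma called 0. At an unadjusted p under 0.05, 13 were higher and 8 lower, against 3.04% and 2.28% of all genes. Differences were above 0 in 51.0% of all genes. The 16 interferon response genes all had differences below 0, with a median of -0.19, and 0 had an unadjusted p under 0.05. The 10 smooth muscle genes all had differences above 0, with a median of 0.29 and 3 at an unadjusted p under 0.05. Circadian clock, glucocorticoid response, immediate early, heat shock and cell cycle genes had medians from -0.057 to 0.026.

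In the CLA arrays the same contrast gave a smaller liver signal, mainly in 1 array. That contrast uses other animals and arrays, 2 of day 17 against 8 of days 3, 4, 7 and 10, and limma called 0 genes in it (0.0%), with 885 higher at an unadjusted p under 0.05 (4.86%). Of the 55 genes, 53 had differences above 0 there, against 53.3% of all genes, and 35 were higher at an unadjusted p under 0.05. The median difference of the 55 was 0.46, against 1.44 in the controls. The difference between the diets was not tested.

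Fabp1 read 3.64 and 5.90 in the CLA day 17 arrays, against 2.75 to 3.90 on CLA days 3 to 10, and Alb read 6.74 and 8.81 against 4.5 to 7.51. Here replicate 2 was the higher array, in 51 of the 55 genes, whereas in the controls it was replicate 1. The liver sum was 888 and 1963 in the CLA arrays of day 17, against 570 to 939 on CLA days 3 to 10. Fabp1 and Alb in replicate 1 lay inside the earlier CLA range. Cyp3a11 (3.66, earlier at most 2.83) and Apoa1 (5.76, earlier at most 5.1) in replicate 1 lay above it.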

How the data were processed

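The deposited table holds log2 values of 45101 probe sets on 28 arrays. The authors made them with RMA, per the submitters' processing notes; its version, and the array software, are not given in the sources used here. RMA subtracts background, brings the arrays to a common distribution and summarises each probe set, so differences near the bottom and the top of the scale can be understated. Array medians were 4.1 to 4.2, and the values entered the fits as deposited. Of the probe sets, 64 array controls were left out, 34945 name 1 gene in GEO's platform annotation (34741 matched by gene ID to the RefSeq table of GRCm38.p6), 932 name several genes and 9160 none. A gene was represented by the probe set that was brightest on average in the 28 arrays, which gave 18193 genes; 9010 of them have more than 1 probe set. Raw scanner values were not used here, so detection above background could not be judged, and precision is limited by how few arrays there are.

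Differences were fitted with limma 3.58.1 in R 4.3.3 (lmFit and eBayes) over the 10 control arrays, with 2 terms, earlier days and day 17, and the day as a random block (consensus correlation 0.0104). Contrasts with each earlier day and the F test among them used 1 term per day. P-values are two-sided, adjusted by the Benjamini-Hochberg method over all genes, with a threshold of 0.05. Values after ± are standard errors. The fit was tested on simulated data of 18193 genes for control day 17 against the earlier days. Of 50 genes changed by 0.5, 1, 2 and 3 on the log2 scale each, 22%, 86%, 100% and 100% were called, and 14 unchanged genes were called. The simulation shifted both day 17 arrays of a gene alike and held more changed genes than were called in the real data. Recovery in the real data can therefore be lower. List sums add the linear signals of a list's members in an array. Python 3.11.15 and matplotlib 3.10.9 made the figures.

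The genes named are the 15 largest rises and falls among called genes with no overlap between the groups, the 10 largest of each among such genes on no organ list (falls that were not called complete the list), members of each list chosen by call and then by level, and defining markers; a few others, marked by their values as extremes of a list, were chosen after their values were seen. The members, lists and roles were chosen with earlier results of these data known. Alternatives were another unit of test, other sets of arrays and days, another normalisation, other probe sets, a filter on dim genes and a fold threshold.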

Additional observations from a re-analysis of the deposited data

Results flagged for a closer look

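Among the 8 earlier control arrays, an extreme value was looked for in 61 sets of values, the called genes and a few of the list sums. Most list sums were not examined in this way. Chance alone sets such an array apart in about 1 in 20 groups. Replicate 2 of day 3 was set apart as the highest array for 6 genes of liver: Ambp at 3.98, with the next array at 3.32, Fabp1 at 4.84 (next 3.79), Fgb at 4.40 (3.66), Fgg at 5.01 (4.03), Hpx at 4.94 (3.94) and Serpina1b at 5.89 (4.47). The liver sum of the same array was 1336, with the next at 985. Replicate 1 of day 3 was set apart in its skeletal muscle sum, 28790, with the next array at 11427, and as the lowest for Cfi at 3.36 (next 3.58). Stard10 was lowest in replicate 1 of day 7, at 5.12 (next 5.48), and Ptger2 in replicate 1 of day 4, at 4.24 (next 4.52).

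Probe sets that name several genes or none were not used in the comparison. Of 10092 such probe sets, limma called 9 higher on control day 17 (0.0892%) and 0 lower. They rose by 1.5 to 3.91 on the log2 scale. The named ones belong to families: Serpina1d and Serpina1a (3.10), Ces3a and Ces3b (2.45), which are liver carboxylesterases, and Mug1 and Mug2 (1.5), which are murinoglobulins of plasma. Outside the control arrays, replicate 2 of CLA day 17 had a liver sum of 1963, above all control arrays of days 1 to 10, whose highest was 1336.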

How the results depend on the processing

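No called gene's represented value changed direction under an alternative, but of 14 other probe sets of called genes 13 had the same sign, the exception being 1 of Apoh (-0.11, against 2.22). Of the 55 genes that rose, 30 were called in all 25 alternatives other than the filter on dim genes, and of 1386 values of these genes under alternatives 1277 stayed called and 109 did not. The count of 55 became 86 without day 3 and 10 with the filter (log2 of at least 6 in at least 2 arrays), which kept 8346 genes and only 11 of the 55; leaving out 1 array gave 44 to 85. The liver list count of 28 became 8 with the filter and ran from 15 to 30 over single arrays left out. The 2 falls became 1 with 1 term per day, day means, 14 groups, days 1 and 2 added, day 7 left out, median centring, the most variable probe set, every probe set and the filter, 0 with a 2-fold threshold, and 0 to 3 without single arrays. Against day 3 the 20 rises became 12 after quantile normalisation, 13 with the most variable and with every probe set and 4 with the filter (1 to 61 without single arrays), and the 1 fall became 0 under the last 3 (0 to 1). Against day 4 the 39 rises became 10 with the filter (7 to 78), and the 1 fall became 0 with quantile normalisation, either probe set choice and the filter (0 to 2). Against days 7 and 10 the 31 rises each became 9 with the filter (9 to 98 and 7 to 62); the 0 falls against day 7 became 1 with 14 groups, quantile normalisation and median centring (0 to 15), and stayed 0 against day 10. The F test gave 0 to 65 without single arrays. The fat lists gave 0 called genes in all 572 counts. The cause of these shifts was not tested.

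The labels number the arrays of each day, but the numbers are not stated to pair samples: deviations of same-numbered arrays correlated at 0.016 to 0.27 over 10 pairs of days, 6 of them over 0.1. With the replicate block 55 genes were higher, 54 of them shared, and 1 lower; against day 3, 5 were lower, against day 7, 1 was lower, and the F test called 1.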

Other observations

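Some transcripts followed the replicate number in the labels rather than the day. In a limma fit with the replicate number as a term over the 10 control arrays, Ap2a2, a subunit of the clathrin adaptor, was 1.22 ± 0.15 higher in replicate 2 (adjusted p = 0.00694) and Gm2a, the activator of ganglioside breakdown, 1.12 ± 0.15 higher (0.015), each on 5 of 5 days. Zdhhc2, a palmitoyltransferase, was lower on all 5 days, by -0.95 ± 0.11 (0.00654). Of 18 clock genes limma called 0 in this term, 5 had an unadjusted p under 0.05, and 6 kept 1 order of the replicates on all 5 days. The same shares over all genes are not given here, so whether clock genes stand out cannot be judged. Dbp and Nr1d1 read higher in replicate 2 on 5 of 5 days (1.20 ± 0.24, adjusted p = 0.101, and 0.74 ± 0.15, adjusted p = 0.102), and Arntl read lower on all 5 (-0.40 ± 0.13, adjusted p = 0.271). The adipocyte identity sum was higher in replicate 2 on 7 of 7 control days, days 1 and 2 included. How often other list sums kept 1 order is not given here.

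Single arrays also differed in some blood cell transcripts. S100a9 and S100a8, calcium binding proteins of neutrophils, read 7.97 and 7.92 in replicate 1 of day 7, against medians of 5.21 and 5.68 over the earlier arrays, and S100a9 read 6.87 in replicate 2 of day 3. Ighm, the heavy chain of IgM, read 11.04 in replicate 2 of day 17, the array with the sperm transcripts, and 8.96 to 10.19 in the earlier arrays. Other B cell genes named here did not follow it: Ms4a1 (CD20) read 3.10 in that array, under the earlier range of 3.50 to 4.31, and Cd79a read 3.96, inside its range. Over the 16 genes of the B and plasma cell list the median difference was -0.005, with 0 higher and 2 lower at an unadjusted p under 0.05.

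Of the 30 genes that varied most among the 8 earlier arrays, 10 were on the skeletal muscle list and 22 were highest in replicate 1 of day 3. In 13 of the 30 the lowest array was replicate 1 of day 7, among them Crim1 (3.96 there, with a median of 7.21), Sp1 (5.99 and 8.88) and the nuclear RNA Malat1 (5.37 and 8.39).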
